A study of Mus musculus with 12 samples.

Results

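The genes described here are 10 genes of the hypoxia-inducible factor (HIF) pathway: the HIF alpha subunits Hif1a and Epas1 (HIF-2 alpha), the HIF prolyl hydroxylases Egln1 (PHD2) and Egln3 (PHD3), and the hypoxia-inducible genes Vegfa, Pdk1, Bnip3, Bnip3l, Higd1a and Ankrd37. They were taken as a list of names, through the RefSeq accession of each probe, from 32678 genes on the array, and 17 probes belonged to them. Each gene is given by its brightest probe. Of the 10 genes, 9 passed the filter on dim probes and were tested among 19669 genes, and each of the 9 was well above background on all 12 arrays. Epas1 did not pass.

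The cells were NIH3T3, a single established line of mouse embryonic fibroblasts, grown in medium with calf serum and treated for 18 h with 2 µM PP242, 50 nM rapamycin or the solvent DMSO, with 4 arrays in each group. PP242 competes with ATP in the mTOR kinase and acts on both complexes of that kinase, mTORC1 and mTORC2, while rapamycin binds mTOR together with FKBP12 and acts mainly on mTORC1; the series set out to separate what the complexes regulate. Replicates were independent experiments according to the design text, which gives 2 µM PP242, whereas the treatment protocol of the labels gives 2 mM. Each compound was used at a single dose and the doses differ, so the comparison between them is one of these treatments.

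HIF is a transcription factor made of an alpha subunit and the constitutive partner ARNT. With oxygen present, prolyl hydroxylases mark the alpha subunit for binding by VHL and for degradation by the proteasome; when oxygen is low the alpha protein accumulates, and HIF binds a short core motif near its target genes. mTORC1 is known to raise HIF-1 alpha at the level of protein synthesis, and HIF targets serve glycolysis, angiogenesis, mitophagy and the feedback on HIF itself. An array measures transcripts, so the amounts and activity of the HIF proteins were not measured here.

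The arrays were of different kinds by signal. On PP242 1 and 4, Rapamycin 3 and DMSO 2 the dim probes were raised: their 75th percentile of processed signal was 21.9, 13.6, 7.12 and 51.1 times the 25th, against 261 to 420 times on the other 8 arrays (PP242 2 and 3, Rapamycin 1, 2 and 4, DMSO 1, 3 and 4). Tests are therefore given on the 8 arrays, and the fold changes of the 9 genes on all 12 arrays are given as well. Values below are relative signals, the processed signal of a probe divided by the 75th percentile of its array, and differences are on the log2 scale of these. They compare a gene between samples and not one gene with another. All 10 fibroblast markers checked (Col1a1, Vim and Thy1 among them) were well above background on the 8 arrays. Of the markers of other cell types, 2 of 5 leukocyte, 1 of 5 epithelial and 0 of 5 endothelial markers were, with the defining markers Ptprc, Epcam and Cdh1 well above background on none of the 8.

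In PP242-treated cells, 5 of the 9 genes tested fell and none rose, relative to DMSO. Higd1a, an inner mitochondrial membrane protein that associates with the respiratory chain, was 3.61-fold lower. Bnip3, a mitophagy receptor of the outer mitochondrial membrane, was 2.32-fold lower, and Ankrd37, a small ankyrin repeat protein induced by hypoxia, was 2.18-fold lower. Pdk1, the kinase that inhibits pyruvate dehydrogenase, was 1.77-fold lower, and Egln1 was 1.52-fold lower. These calls are from limma on the 8 arrays at a Benjamini-Hochberg adjusted p below 0.05 over all genes tested. At the same threshold 25.8% of all genes passed and 12.9% of all genes fell. The median log2 fold change of the 9 genes was -0.82, beside -0.01 for all genes tested. No test was made of the group of genes as a whole, since its members were chosen with results of these data known. On the 12 arrays none of the 9 passed in limma, where 0.387% of 25581 genes passed. There 5 of the 9 had an unadjusted p below 0.05, as had 9.05% of all genes.

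Higd1a had relative signals of 3.98, 4.39, 4.37 and 3.51 on the PP242 arrays 1 to 4, against 17.1, 17.1, 15.3 and 15.2 on the DMSO arrays 1 to 4. All 4 PP242 arrays lay below all 4 DMSO arrays, those with raised dim probes included. Of those, PP242 4 and Rapamycin 3 were also the lowest arrays of their groups for Hif1a (4.50 and 1.52), which did not pass. A low value on such an array is thus not particular to Higd1a. The log2 fold change of Higd1a was -1.85 ± 0.11 (SE; n = 2 PP242 and 3 DMSO arrays; limma adjusted p = 0.00042), and it was -2.0 ± 0.44 on the 12 arrays (limma adjusted p = 0.0978, n = 4 each). A second, dimmer Higd1a probe gave -1.80 on the 8 arrays.

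Bnip3 had relative signals of 6.12, 6.33, 6.82 and 4.27 with PP242, against 14.2, 14.4, 15.2 and 16.5 with DMSO. Every PP242 array was below every DMSO array. The log2 fold change was -1.22 ± 0.13 (limma adjusted p = 0.00168), and -1.38 ± 0.35 on the 12 arrays (limma adjusted p = 0.142). Bnip3l, the related mitophagy receptor also called NIX, did not follow Bnip3: its relative signals were 6.86, 7.97, 8.93 and 4.26 with PP242 and 5.07, 4.70, 5.34 and 7.54 with DMSO. On the 8 arrays the PP242 values lay above the DMSO values, as they did for 29.8% of all genes, while on the 12 arrays the Bnip3l groups overlapped. The difference of 0.52 ± 0.18 did not pass (limma adjusted p = 0.0838), nor did that of 0.28 ± 0.47 on the 12 arrays (limma adjusted p = 0.807). A second Bnip3l probe gave 0.36 on the 8 arrays.

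Pdk1 had relative signals of 1.16, 1.29, 1.2 and 0.896 with PP242, against 2.20, 1.95, 2.15 and 2.26 with DMSO, again with no overlap. Its log2 fold change was -0.82 ± 0.12 (limma adjusted p = 0.0048), and -0.92 ± 0.34 on the 12 arrays (limma adjusted p = 0.384). Ankrd37 had 0.607, 0.398, 0.455 and 1.2 with PP242, against 0.789, 0.946, 0.755 and 1.35 with DMSO. The groups were apart on the 8 arrays, as were those of 59% of all genes, and on the 12 arrays PP242 4 lay among the DMSO values. The log2 fold change of Ankrd37 was -1.13 ± 0.28 (limma adjusted p = 0.0295), against -0.63 ± 0.44 on the 12 arrays (limma adjusted p = 0.796).

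Vegfa encodes the main angiogenic growth factor of the HIF pathway. Its relative signals were 3.21, 3.68, 3.71 and 2.28 with PP242, against 4.57, 4.47, 4.82 and 7.63 with DMSO. The groups did not overlap, but DMSO 4 stood above the other DMSO arrays, and the difference of -0.58 ± 0.25 did not pass (limma adjusted p = 0.151), nor did that of -0.73 ± 0.51 on the 12 arrays (limma adjusted p = 0.796). The other 3 Vegfa probes gave -0.67, -1.06 and -0.87 on the 8 arrays. With the mean over the Vegfa probes the difference was -0.79 (limma adjusted p = 0.032).

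Of the hydroxylases, Egln1, the main oxygen sensor that acts on HIF-1 alpha, had relative signals of 1.36, 1.42, 1.43 and 1.31 with PP242, against 1.97, 1.96, 1.98 and 2.60 with DMSO. All PP242 arrays were below all DMSO arrays. The log2 fold change was -0.60 ± 0.16 (limma adjusted p = 0.0344), and -0.61 ± 0.21 on the 12 arrays (limma adjusted p = 0.321); a second, dimmer Egln1 probe gave -0.41 on the 8 arrays and 0.10 on the 12. Egln3, which is strongly induced by hypoxia in many cell types, had 0.192, 0.203, 0.207 and 0.0736 with PP242, against 0.526, 0.474, 0.519 and 0.269 with DMSO. These groups did not overlap either, yet DMSO 4 and PP242 4 stood well below the rest of their groups. The difference of -1.03 ± 0.45 on the 8 arrays, which include DMSO 4 but not PP242 4, did not pass (limma adjusted p = 0.15). The difference on the 12 arrays was -1.47 ± 0.47 (limma adjusted p = 0.277).

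The Hif1a transcript did not pass, with relative signals of 5.85, 6.54, 7.74 and 4.50 with PP242 and 7.72, 6.97, 8.41 and 7.25 with DMSO. The groups overlapped. The log2 fold change was -0.13 ± 0.15 (limma adjusted p = 0.578), with a 95% interval of -0.49 to 0.23, and -0.33 ± 0.50 on the 12 arrays (limma adjusted p = 0.797). Epas1 was not well above background on any of the 8 arrays: its 2 probes had relative signals of 0.0019 to 0.0058 there. They were called well above background only on PP242 4 (0.025 and 0.0186) and Rapamycin 3 (0.0757 and 0.0763), both arrays with raised dim probes, so no fold is given. Lower transcript per cell and fewer cells with the transcript cannot be told apart in these bulk samples.

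Across the 12 arrays, the PP242 group lay wholly below the DMSO group for 6 of the 9 genes (Higd1a, Bnip3, Pdk1, Egln1, Egln3 and Vegfa), where 17.9% of the 19669 genes did so and 29.4% did not overlap in either direction. The shares of the 12 arrays include dim genes, whose probes were raised on 4 of the arrays. On the 8 arrays the PP242 group lay below for 7 of the 9, where 29.2% of all genes did so and 59% did not overlap. Groups and slides were partly mixed: slide 1 held PP242 2, Rapamycin 1, DMSO 1 and DMSO 4. Within slide 1 the PP242 array minus the mean of the DMSO arrays was -1.87 for Higd1a, -1.27 for Bnip3, -0.79 for Pdk1, -1.37 for Ankrd37 and -0.67 for Egln1. With slide as a block, limma on the 8 arrays kept Higd1a (-1.80, adjusted p = 0.0189) and Bnip3 (-1.21, adjusted p = 0.0323), where 7.05% of all genes passed. Pdk1 (-0.73, adjusted p = 0.0573), Ankrd37 (-1.14, adjusted p = 0.155) and Egln1 (-0.55, adjusted p = 0.193) did not pass in that limma fit. Leaving out each of the 8 arrays in turn, Higd1a and Bnip3 passed in 8 of 8 fits, Pdk1 in 7 (not without PP242 3), Ankrd37 in 5 (not without PP242 2, PP242 3 or Rapamycin 2) and Egln1 in 2 (those without Rapamycin 4 or DMSO 4).

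**Figure D1:**
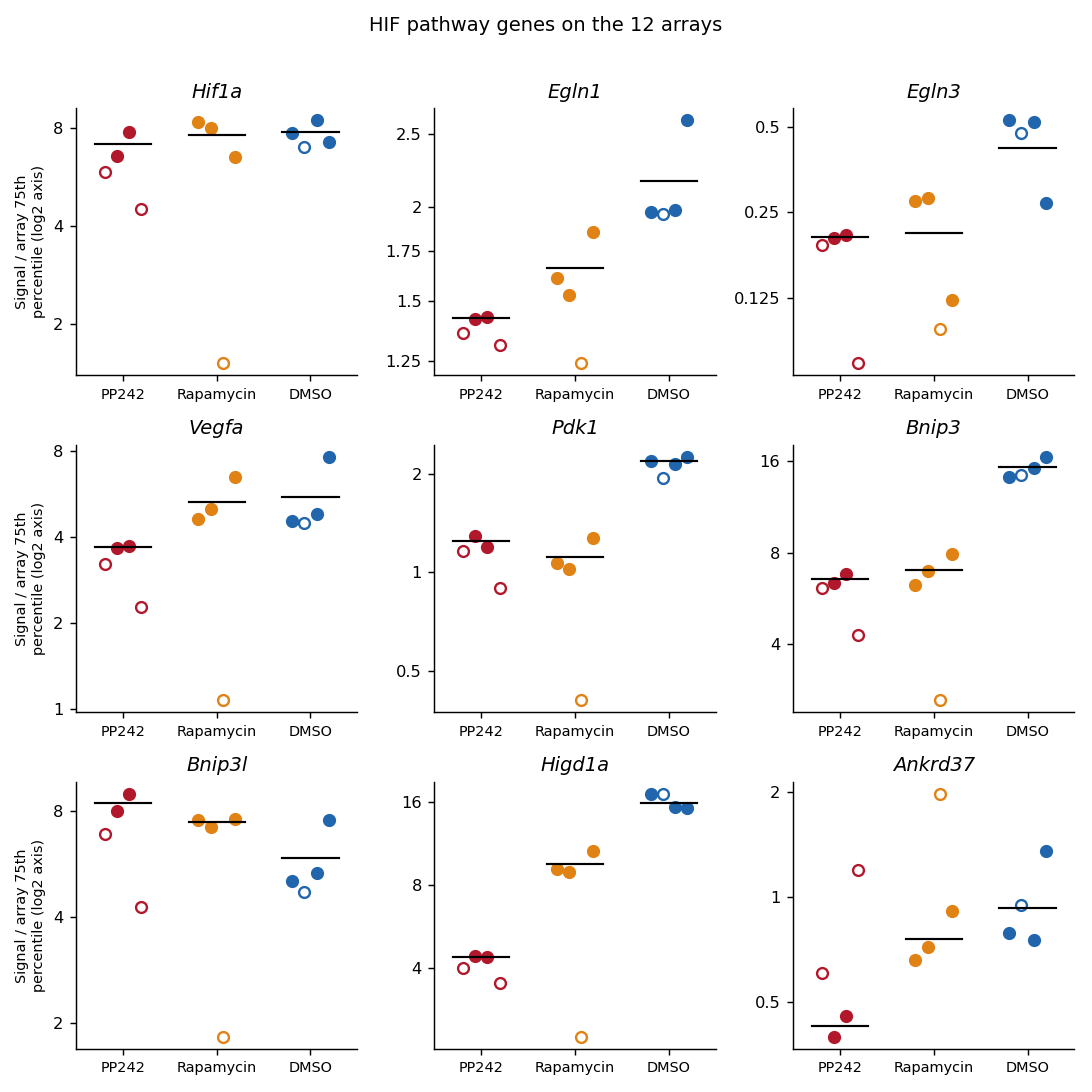
Relative signal of 9 HIF pathway genes on each array, on log2 axes, for PP242, Rapamycin and DMSO, replicates 1 to 4 in order within a group. Filled circles are the 8 arrays used in the tests, open circles the 4 arrays with raised dim probes, and lines the geometric mean over the filled circles; Higd1a has 3.51 to 4.39 on the PP242 arrays, below all DMSO arrays, while Hif1a overlaps.

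The start-site windows of the 5 genes that fell with PP242 are shown because HIF binds a core motif near its target genes. Whether HIF acts in these windows was not measured. They run from 250 bases before the annotated start to 50 bases after it, and were read 5′ to 3′ on the strand of the gene from RefSeq (build GRCm38.p6). Capitals mark ACGTG or GCGTG on the strand of the gene and their reverse complements CACGT or CACGC for the opposite strand. Higd1a lies at chr9:121857747-121858046, Bnip3 at chr7:138909457-138909756, Ankrd37 at chr8:45999801-46000100 and Egln1 at chr8:124949205-124949504, all on the minus strand, and the first of 2 Pdk1 windows at chr2:71872974-71873273 on the plus strand.
Higd1a: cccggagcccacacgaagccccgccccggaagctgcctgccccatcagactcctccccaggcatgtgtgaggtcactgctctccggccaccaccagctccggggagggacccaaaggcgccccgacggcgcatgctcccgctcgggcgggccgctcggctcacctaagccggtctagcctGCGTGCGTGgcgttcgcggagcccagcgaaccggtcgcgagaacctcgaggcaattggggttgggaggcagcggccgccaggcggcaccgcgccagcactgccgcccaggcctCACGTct
Bnip3: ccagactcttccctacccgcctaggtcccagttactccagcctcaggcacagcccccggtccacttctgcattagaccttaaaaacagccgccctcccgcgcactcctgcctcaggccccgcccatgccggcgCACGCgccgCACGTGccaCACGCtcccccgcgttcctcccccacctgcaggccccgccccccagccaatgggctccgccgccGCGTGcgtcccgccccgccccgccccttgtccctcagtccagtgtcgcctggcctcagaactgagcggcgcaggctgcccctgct
Pdk1: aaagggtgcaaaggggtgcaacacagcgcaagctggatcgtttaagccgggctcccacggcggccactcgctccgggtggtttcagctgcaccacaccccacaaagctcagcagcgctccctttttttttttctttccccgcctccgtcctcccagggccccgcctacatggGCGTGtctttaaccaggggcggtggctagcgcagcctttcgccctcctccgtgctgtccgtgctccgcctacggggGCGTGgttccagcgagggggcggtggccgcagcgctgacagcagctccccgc
Ankrd37: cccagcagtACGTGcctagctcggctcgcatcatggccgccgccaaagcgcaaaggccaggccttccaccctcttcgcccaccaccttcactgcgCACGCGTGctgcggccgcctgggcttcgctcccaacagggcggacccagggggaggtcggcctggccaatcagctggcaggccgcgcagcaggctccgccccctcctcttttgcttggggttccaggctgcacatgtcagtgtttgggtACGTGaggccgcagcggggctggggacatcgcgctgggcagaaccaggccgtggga
Egln1: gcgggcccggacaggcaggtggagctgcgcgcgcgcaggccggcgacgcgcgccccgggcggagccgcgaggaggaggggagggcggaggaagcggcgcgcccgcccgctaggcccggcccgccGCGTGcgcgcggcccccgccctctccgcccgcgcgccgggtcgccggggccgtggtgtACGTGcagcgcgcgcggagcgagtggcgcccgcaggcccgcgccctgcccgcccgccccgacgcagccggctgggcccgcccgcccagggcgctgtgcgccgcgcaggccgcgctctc

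The Bnip3 window held 5 matches, of which a pair were the strands of 1 palindrome, CACGTG. Ankrd37 held 4 matches, of which a pair overlapped as the strands of a palindrome, CACGCGTG. Higd1a held 3, of which a pair overlapped in GCGTGCGTG, and Egln1 and the first Pdk1 window 2 each. In all, 8 of the 10 genes had a window in the RefSeq table (Epas1 and Bnip3l were not matched), with 10 windows for the 8 genes. A match was present in 8 of the 10 windows, beside 43.8% of the 32851 windows in the table, and 2 or more in 7 of the 10, beside 20.6%. The share of G and C bases was 66% (Pdk1) to 86% (Egln1) in the windows shown. It was 62% and 40.3% in the Vegfa and Pdk1 windows without a match. The windows of the table were not matched for base content, and its bearing on these shares was not tested. Among the genes that did not pass, Hif1a had 3 matches (a pair of them 1 palindrome), Egln3 1 and the windows of Vegfa 0 and 2. A match is a string of letters, and binding was not measured.

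**Figure D2:**
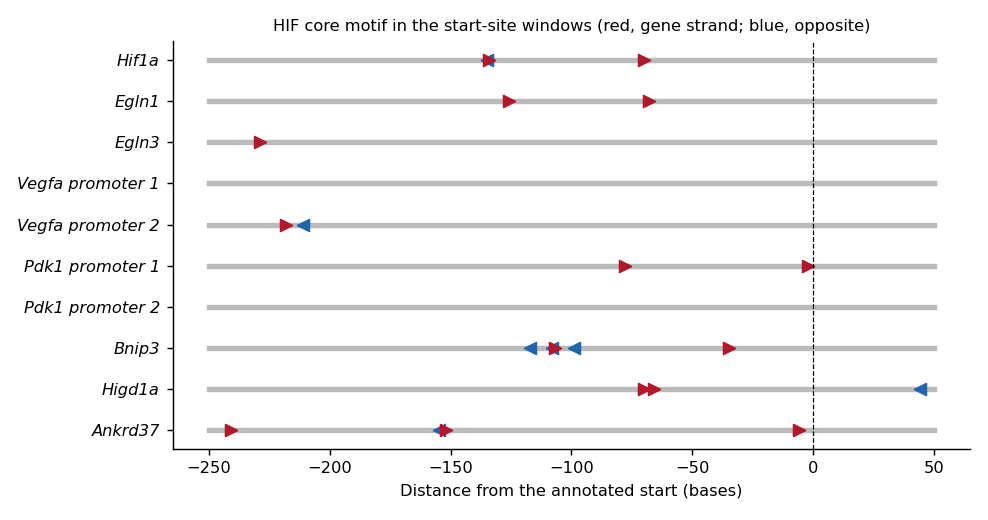
Positions of the core motif in the RefSeq start-site windows of 8 HIF pathway genes, as distance in bases from the annotated start (dashed line). Red triangles are matches on the strand of the gene and blue triangles matches on the opposite strand; the Bnip3 window holds 5, while the first Vegfa window and the second Pdk1 window hold 0.

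With rapamycin, none of the 9 genes passed against DMSO in limma on the 8 arrays, where 0.0254% of all genes passed (5 genes). An unadjusted p below 0.05 was found for 5 of the 9, and for 13.1% of all genes. This comparison and the one of PP242 share the DMSO arrays. Bnip3 had relative signals of 6.24, 6.94, 2.61 and 7.92 on the rapamycin arrays 1 to 4, all below the DMSO values given above. Its log2 fold change was -1.12 ± 0.12 (limma adjusted p = 0.0532, n = 3 each), beside -1.22 for PP242. Pdk1 had 1.07, 1.02, 0.406 and 1.28 with rapamycin, also below every DMSO array, and a log2 fold change of -0.98 ± 0.11 (limma adjusted p = 0.0532), beside -0.82 for PP242. Rapamycin 3, an array with raised dim probes, gave the lowest value of both genes. The unadjusted limma p of Bnip3 was 4.9e-05 with rapamycin and 5.9e-05 with PP242, each against DMSO. That of Pdk1 was 6.6e-05 with rapamycin and 0.00036 with PP242. A Benjamini-Hochberg adjusted p also depends on the p-values of all other genes in the comparison.

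Higd1a had relative signals of 9.14, 8.92, 2.25 and 10.6 with rapamycin, below every DMSO array. Its log2 fold change was -0.73 ± 0.10 (limma adjusted p = 0.0769). Egln1 had 1.61, 1.53, 1.24 and 1.85 with rapamycin, below the lowest DMSO value of 1.96, and a difference of -0.38 ± 0.14 (limma adjusted p = 0.331). The rapamycin group thus lay, over the 12 arrays, wholly below the DMSO group for 4 of the 9 genes (Bnip3, Pdk1, Higd1a and Egln1), where 5.9% of the 19669 genes did so and 8.12% did not overlap in either direction. On the 8 arrays it also lay below for 4 of the 9, where 10.3% of all genes did so and 18.6% did not overlap.

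Egln3 had relative signals of 0.274, 0.281, 0.0974 and 0.123 with rapamycin. Rapamycin 3 and 4 were the low ones, the groups overlapped through DMSO 4, and the difference of -0.98 ± 0.40 did not pass (limma adjusted p = 0.375). Hif1a had 8.34, 7.998, 1.52 and 6.51 with rapamycin and a difference of -0.04 ± 0.13, with a 95% interval of -0.36 to 0.28. Vegfa had 4.63, 5.03, 1.08 and 6.48 with rapamycin and a difference of -0.05 ± 0.23. For both genes the 3 rapamycin arrays other than Rapamycin 3 lay within or near the range of the DMSO arrays. Bnip3l had 7.55, 7.17, 1.82 and 7.56 with rapamycin (difference 0.33 ± 0.16) and Ankrd37 had 0.662, 0.718, 1.97 and 0.909 (difference -0.30 ± 0.25), and neither passed (limma adjusted p = 0.454 and 0.696). The rapamycin differences on the 12 arrays were -1.46 for Bnip3, -1.30 for Pdk1, -1.28 for Higd1a, -1.31 for Egln3 and -0.45 for Egln1, beside 0.18 for the median of all genes. They were -0.58 for Hif1a, -0.55 for Vegfa, -0.09 for Bnip3l and 0.04 for Ankrd37. None of the 9 passed there (limma adjusted p between 0.832 and 0.962), where 0% of all genes passed. An unadjusted p below 0.05 was found there for 4 of the 9, and for 1.77% of all genes.

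The rapamycin calls turned on 1 array and on the settings of the test. Without Rapamycin 4, limma called 3 of the 9 genes lower than in DMSO (Bnip3, Pdk1 and Higd1a), where 0.493% of all genes passed. The same 3 were called with an intensity trend in the variance, where 0.315% of all genes passed, and with only probes well above background on all 8 arrays, where 0.411% passed. With array quality weights 6 of the 9 passed, Bnip3, Pdk1, Higd1a, Egln1 and Egln3 lower and Bnip3l higher, where 14.4% of all genes passed. Within slide 1, Rapamycin 1 minus the mean of DMSO 1 and 4 was -1.29 for Bnip3, -1.06 for Pdk1 and -0.82 for Higd1a, and within slide 3, Rapamycin 4 minus DMSO 3 was -0.94, -0.75 and -0.53 for the same genes. With slide as a block on the 8 arrays these genes had differences of -1.15, -0.94 and -0.71 (limma adjusted p = 0.459, 0.463 and 0.519).

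**Figure D3:**
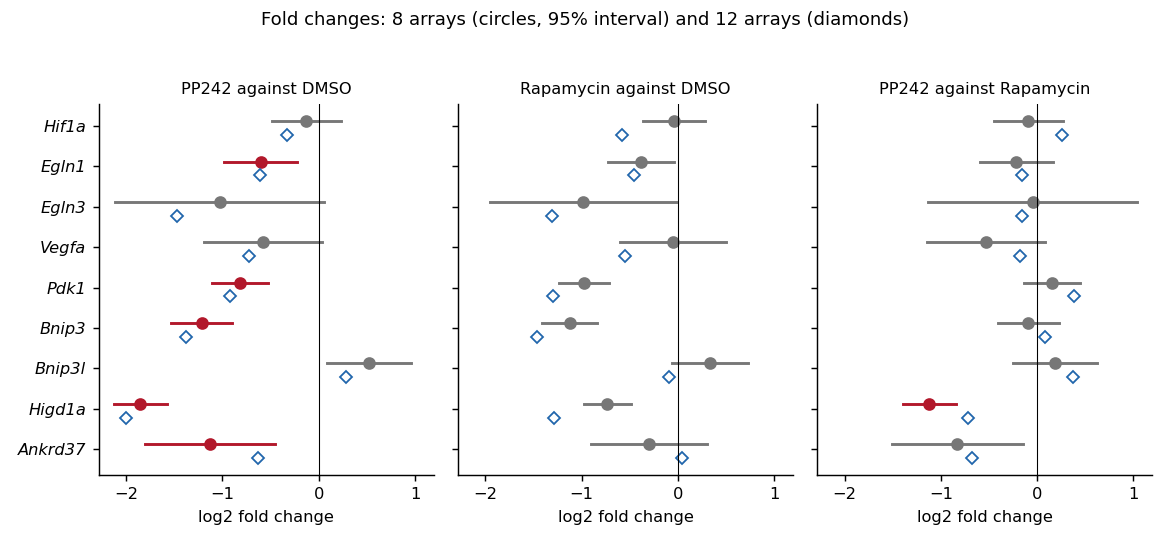
Log2 fold changes of 9 HIF pathway genes for PP242 against DMSO, Rapamycin against DMSO and PP242 against Rapamycin. Circles with 95% intervals are from limma on the 8 arrays, red where the adjusted p is below 0.05 and grey otherwise, and diamonds are the fold changes on all 12 arrays; 5 genes are red for PP242 against DMSO, 0 for Rapamycin against DMSO and 1, Higd1a, for PP242 against Rapamycin.

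Set directly against rapamycin, PP242 gave a lower Higd1a: 3.98, 4.39, 4.37 and 3.51 with PP242, against 9.14, 8.92, 2.25 and 10.6 with rapamycin. The PP242 arrays lay below the rapamycin arrays except for Rapamycin 3, whose dim probes were raised. The log2 fold change was -1.12 ± 0.11 (limma adjusted p = 0.00276; n = 2 PP242 and 3 rapamycin arrays), a second Higd1a probe gave -1.08, and on the 12 arrays the call was lost, with a difference of -0.71 ± 0.44 (limma adjusted p = 1). Higd1a was the only gene of the 9 to pass in this comparison, also when any 1 of the 8 arrays was left out except for Ankrd37 added without DMSO 4. In this comparison 13.9% of all genes passed and 7.08% were lower with PP242.

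For Bnip3, Pdk1 and Egln1, which also fell with PP242 against DMSO, the 95% interval of the difference between the treatments included 0. The difference of PP242 minus rapamycin was -0.09 for Bnip3 (95% interval -0.41 to 0.22), 0.16 for Pdk1 (-0.13 to 0.45) and -0.22 for Egln1 (-0.60 to 0.16). Ankrd37 (-0.83 ± 0.28, 95% interval -1.51 to -0.15, limma adjusted p = 0.108) and Vegfa (-0.53 ± 0.25, limma adjusted p = 0.234) had lower values with PP242 on the 8 arrays without overlap and did not pass, as 53.4% of all genes did not overlap there and 25.1% lay below. Hif1a differed by -0.09 (95% interval -0.45 to 0.27), Bnip3l by 0.19 (-0.25 to 0.62) and Egln3 by -0.04 (-1.13 to 1.04). None of the 9 passed on the 12 arrays in limma, where 0% of all genes did; an unadjusted p below 0.05 was found for 0 of the 9 and for 4.14% of all genes. The differences there were 0.08 for Bnip3, 0.38 for Pdk1, -0.16 for both Egln1 and Egln3, -0.67 for Ankrd37, -0.17 for Vegfa, 0.25 for Hif1a and 0.37 for Bnip3l, beside 0.26 for the median of all genes.

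The 9 genes also varied among arrays of 1 treatment. DMSO 4 had the highest DMSO value of Vegfa, Egln1, Ankrd37, Bnip3l, Bnip3 and Pdk1 and the lowest of Egln3 and Higd1a. Among the 3 rapamycin arrays of the tests, Rapamycin 4 had the highest value of Vegfa, Egln1, Ankrd37, Bnip3l, Bnip3, Pdk1 and Higd1a and the lowest of Egln3 and Hif1a. DMSO 4 and Rapamycin 4 were on different slides. Over the DMSO arrays of the tests, the SDs of Higd1a, Bnip3 and Pdk1 on the log2 scale were 0.09, 0.11 and 0.04 (n = 3), while those of Egln3, Ankrd37 and Vegfa were 0.55, 0.47 and 0.41.

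Further genes of the pathway were described as 2 lists. Of 18 regulators and partners of HIF, 17 were tested, and Vhl is not analysed here. With PP242 against DMSO 1 rose and 2 fell, 3 of the 17, where 25.8% of all genes passed. The one that rose was Arnt2, a paralogue of the partner Arnt (1.2 ± 0.16, limma adjusted p = 0.00314). Siah2, an E3 ligase that targets the prolyl hydroxylases, fell by 1.57 (limma adjusted p = 0.00345), and Cul2, the cullin of the VHL ligase, fell by 0.65 (limma adjusted p = 0.0107). The 14 others did not pass, among them Elob (-0.16) and Rack1 (-0.17), and the median of the list was 0.00, beside -0.01 for all genes. With rapamycin against DMSO none of the 17 passed in limma, where 0.0254% of all genes passed. Of the 17, 2 had an unadjusted p below 0.05, as had 13.1% of all genes. PP242 against rapamycin had Arnt2 higher (0.70 ± 0.16, limma adjusted p = 0.0321) and Siah2 lower (-1.11 ± 0.21, limma adjusted p = 0.0192), where 13.9% of all genes passed. None of the 17 passed on the 12 arrays in any of the 3 comparisons. Of all genes, 0.387% passed there for PP242 against DMSO and 0% for the other comparisons. With PP242 against DMSO the values there were 1.15 for Arnt2, -1.20 for Siah2 and -0.70 for Cul2 (limma adjusted p = 0.0978, 0.123 and 0.628), and with PP242 against rapamycin 0.79 for Arnt2 and -0.76 for Siah2.

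Of 40 other hypoxia-inducible genes, 36 were tested (Lox is not analysed here, and Car12, Ppp1r3c and Nos2 did not pass the filter). With PP242 against DMSO 14 of the 36 fell, where 12.9% of all genes fell, none rose and 22 did not pass, with a list median of -0.21. Ak4, an adenylate kinase of the mitochondrial matrix, fell by 2.26 (limma adjusted p = 0.000328), and Ldha, which makes lactate, fell by 1.49 (limma adjusted p = 0.000751). Jmjd6, a Jumonji-domain oxygenase, fell by 1.12 (limma adjusted p = 0.00101), and Fam162a, a mitochondrial protein induced by HIF, fell by 1.34 (limma adjusted p = 0.00121). The 10 others that fell were Slc2a1, Ddit4, Stc2, P4ha2, Pgk1, Plod2, Ero1a, P4ha1, Hk2 and Mif, which encode among others a glucose transporter, glycolytic enzymes and collagen-modifying enzymes. Angptl4 (0.22) and Hilpda (-0.29) did not pass. On the 12 arrays 1 of the list passed, Ak4 (-2.08, limma adjusted p = 0.0193), where 0.387% of all genes passed.

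With rapamycin against DMSO 1 of the 36 passed, where 0.0254% of all genes passed. This was Ak4, which fell by 1.14 (limma adjusted p = 0.0215). An unadjusted p below 0.05 was found for 15 of the 36, and for 13.1% of all genes. The list median was -0.35, beside -0.02 for all genes. PP242 against rapamycin had 5 of the 36 lower and none higher: Ak4 (-1.11), Ldha (-0.94), Slc2a1 (-1.28), Jmjd6 (-0.59) and Fam162a (-0.63), where 7.08% of all genes were lower. None of the 36 passed on the 12 arrays in either of these comparisons, where 0% of all genes passed. There Ak4 was -1.30 for rapamycin against DMSO (limma adjusted p = 0.832) and -0.78 for PP242 against rapamycin.

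**Figure D4:**
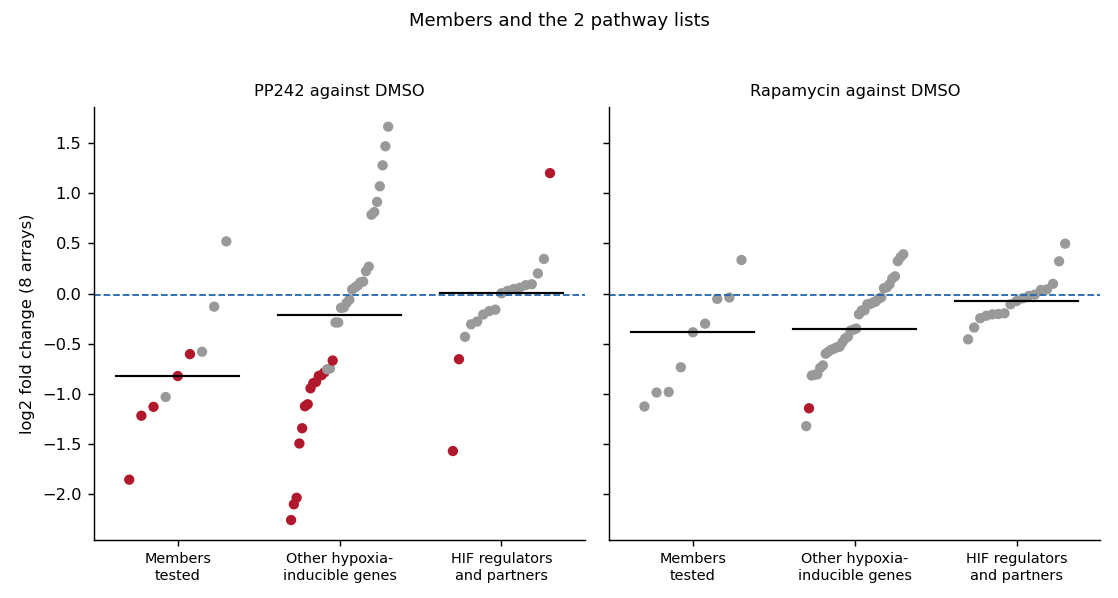
Log2 fold changes on the 8 arrays of the 9 genes tested, of 36 other hypoxia-inducible genes and of 17 HIF regulators and partners, each sorted by value, for PP242 against DMSO and Rapamycin against DMSO. Red points passed at an adjusted p below 0.05 and grey points did not, black lines are list medians and the dashed line is the median of all genes; with PP242 red points of the other hypoxia-inducible genes lie below 0 only.

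The genes most like the mean profile of the 8 members other than the HIF alpha subunits were sought among 10751 genes well above background on all 8 arrays. Accsl had the highest Pearson correlation over the 8 arrays (0.997), followed by Adh7 (0.996), Wdr82 (0.995), Elp6 (0.99) and Pak1ip1 (0.99). The arrays share their treatment groups, so that any gene ordered alike between the groups correlates, and 552 genes had a correlation above 0.9. Among the members, Bnip3 and Pdk1 correlated at 0.965, Ankrd37 and Vegfa at 0.949, and Bnip3l and Higd1a at -0.77 over the same 8 arrays.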

How the data were processed

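Each deposited scanner file gives a linear intensity for every spot, which Agilent Feature Extraction had background-subtracted within each array, per the file headers. The version was 10.5.1.1 per the file headers and 10.1 per the submitters' processing notes. Deposited log2 values of the same arrays were used as an alternative only. Their medians ran between 8.54 and 8.56 and the probes ranked as the median spot intensity did (Spearman correlation at least 0.9999), so they are log2 of an unsubtracted intensity made alike between arrays; the tool behind them is not given in the sources used. Per the labels' protocols, RNA was amplified with a whole transcriptome kit and labelled with Cy3.

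From the processed intensity, log2 values minus the 75th percentile of each array over non-control probes were computed. Control spots and spots marked as outliers were left out, which removed 6611 values, 1.34% of the probe values, and spots of a probe were averaged. Of 41174 probes, 24844 had 1 symbol through RefSeq accessions and 16330 had none. The 8 arrays of the tests are those whose 75th percentile exceeded the 25th by over 100 times. A probe was kept when 2 or more of them had it well above background, which left 19669 genes by their brightest probe, 12534 of them with a symbol. For the 12 arrays the minimum was 4, which left 25581 genes. No spot was saturated. The number of arrays limits the precision.

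Limma 3.58.1 in R 4.3.3 (lmFit, eBayes) was fitted to the 3 groups together, with 2-sided tests and Benjamini-Hochberg adjustment over all genes. All adjusted p-values printed are limma's. The script was tested on simulated data. Tables were handled with the R package data.table (version 1.17.8), Python 3.11.15, pandas 2.3.3 and numpy 2.4.6, and drawn with matplotlib 3.10.9. The members, the pathway lists and the use of 8 arrays were chosen with earlier results of these data known. Named genes were all 10 members, up to 4 passing list genes by adjusted p and up to 2 not passing by level, and the 5 genes nearest to the members' profile. The 10 further list genes that fell were named after their values were seen, as was Fam162a for PP242 against rapamycin. Alternatives were other scalings, background corrections, filters, probe rules, blocks, weights and leaving out each array. Correlations of the deviations of same-numbered samples from their group means over the 12 arrays ran between -0.83 and 0.71. Within the 8 arrays they were 0.41 (Rapamycin 1 and DMSO 1), 0.71 (PP242 2 and Rapamycin 2), 0.37 (PP242 3 and DMSO 3) and 0.52 (Rapamycin 4 and DMSO 4). Every negative correlation involved an array with raised dim probes, and such arrays also entered the group means. The check therefore cannot decide on a pairing. The numbers were not taken as pairs in the main tests.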

Additional observations from a re-analysis of the deposited data

Results flagged for a closer look

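In 7 of the 27 groups of 4 arrays examined (9 genes in 3 treatments), 1 array stood farther from the rest than the 95% limit of a Dixon test for outliers allows; chance gives such a flag in about 1 in 20 groups. The values are log2 relative signals. Rapamycin 3, whose dim probes were raised, was the lowest rapamycin array for Bnip3l (0.87), Hif1a (0.60) and Higd1a (1.17). PP242 4, also with raised dim probes, was the lowest PP242 array for Egln3 (-3.76). DMSO 4, an array of the 8 used in the tests, was the highest DMSO array for Egln1 (1.38) and Vegfa (2.93) and the lowest for Egln3 (-1.89). Without DMSO 4, limma called 6 of the 9 genes for PP242 against DMSO, where 26.2% of all genes passed. The 5 named above were lower and Bnip3l was higher.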

How the results depend on the processing

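The settings of the 8 arrays and of the 12 arrays gave 39 alternatives. None turned the direction of a gene that had passed, and no value that turned round passed a test. On the 8 arrays, quantile normalisation, median centring, normexp, the unsubtracted median signal and the deposited table called the same 5 genes for PP242 against DMSO, 0 for rapamycin against DMSO and Higd1a for PP242 against rapamycin. Of all genes, 18.3% to 25.3% passed there for PP242 against DMSO. At most 0.112% passed for rapamycin against DMSO, and 8.21% to 14.1% for PP242 against rapamycin. For PP242 against DMSO the count was 3 with no filter and 3 with only the compared groups in the fit (Higd1a, Bnip3 and Pdk1), 2 with slide as a block, 8 with array quality weights and 6 with the mean of the probes of a gene. The shares of all genes that passed were, in that order, 11.3%, 21.9%, 7.05%, 47.2% and 25.2%. For rapamycin against DMSO it was 3 with an intensity trend, 3 with probes well above background on all 8 arrays and 6 with weights. There 0.315%, 0.411% and 14.4% of all genes passed. For PP242 against rapamycin it was 2 with the mean of probes (Higd1a and Vegfa) and 4 with weights, where 13.6% and 37.8% of all genes passed.

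On the 12 arrays the count for PP242 against DMSO was 0 as scaled, with median centring, with slide as a block and with a replicate block, 1 with quantile normalisation (Higd1a) and 9 with weights. For rapamycin against DMSO it was 0 except for 6 with weights, and for PP242 against rapamycin 0 except for 7 with weights. With weights on the 12 arrays, 41.6%, 14.6% and 35.5% of all genes passed for PP242 against DMSO, rapamycin against DMSO and PP242 against rapamycin. With quantile normalisation 0.141% passed for PP242 against DMSO. The weights of the 12 arrays ran from 0.015 (Rapamycin 3) to 13.4 (PP242 2), with 0.30, 2.48 and 0.10 for PP242 1, 3 and 4. The weighted PP242 values there thus rest largely on PP242 2. The cause of the change with weights was not tested. Over all genes, PP242 against DMSO called 5083 genes on the 8 arrays and 1386 to 9275 under their other settings, and 0 to 10631 on the 12 arrays. Rapamycin against DMSO called 5, then 0 to 2841 and 0 to 3746, and PP242 against rapamycin 2730, then 511 to 7429 and 0 to 9090. On the 12 arrays the median of all genes was 0.38, 0.18 and 0.26 for PP242 against DMSO, rapamycin against DMSO and PP242 against rapamycin. With median centring of the 12 arrays it was -0.46, -0.39 and -0.01. With rapamycin against DMSO, Hif1a went from -0.04 on the 8 arrays to -0.58 on the 12, and Vegfa from -0.05 to -0.55. Ankrd37 went from -0.30 to 0.04. The median is therefore not a shift that all genes share.

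Leaving out 1 array in turn gave 2 to 6 genes for PP242 against DMSO on the 8 arrays and 0 to 5 on the 12. The 2 came without PP242 3 (Higd1a and Bnip3 kept), 3 without PP242 2 or Rapamycin 2, and 5 on the 12 arrays without Rapamycin 3. For rapamycin against DMSO the counts were 0 to 3 on the 8 arrays (3 without Rapamycin 4) and 0 on the 12, and for PP242 against rapamycin 1 to 2 (2 without DMSO 4, Ankrd37 being added) and 0 to 1. An arm left with 1 array was assumed to vary like the other groups.

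With the replicate number as a replicate block on the 8 arrays, 4 genes passed for PP242 against DMSO (Higd1a, Bnip3, Pdk1 and Egln3), 0 for rapamycin against DMSO and 0 for PP242 against rapamycin (Higd1a -1.05, limma adjusted p = 0.0522). Of all genes, 20.0%, 0% and 4.98% passed in these comparisons. Ankrd37 (-0.94, limma adjusted p = 0.0515) and Egln1 (-0.48, limma adjusted p = 0.0632) did not pass with this block for PP242 against DMSO. Whether the numbers mark pairs could not be decided.

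The values that turned round belonged to genes that had not passed. For rapamycin against DMSO, Hif1a (-0.04) became 0.015 with quantile normalisation, 0.00924 with the unsubtracted signal, 0.041 in the deposited table, 0.016 with the replicate block and 0.00798 with weights, and 0.0496 with weights on the 12 arrays. Vegfa (-0.05) became 0.0089 in the deposited table, 0.034 with the mean of probes and 0.023 with weights on the 12 arrays. On the 12 arrays Bnip3l (0.33) became -0.0902, also with the replicate block, and -0.67 with median centring, and Ankrd37 (-0.30) became 0.041, also with the replicate block, and 0.38 with quantile normalisation. For PP242 against DMSO, Bnip3l (0.52) became -0.59 with median centring on the 12 arrays. For PP242 against rapamycin, Hif1a (-0.09) became 0.25 on the 12 arrays, also with the replicate block, 0.22 with quantile normalisation and 0.14 with slide as a block there. Bnip3 (-0.09) became 0.083 on the 12 arrays, also with the replicate block, 0.048 with slide as a block there and 0.0049 with weights on the 8. Egln3 (-0.04) became 0.00402 with median centring and 0.0025 with the unsubtracted signal.

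Leaving out arrays, rapamycin against DMSO ranged over -0.11 to 0.0698 for Hif1a, -0.19 to 0.18 for Vegfa, 0.23 to 0.51 for Bnip3l and -0.45 to -0.03 for Ankrd37 on the 8 arrays, and -0.82 to 0.00068, -0.84 to 0.024, -0.27 to 0.42 and -0.30 to 0.22 on the 12. PP242 against rapamycin ranged over -0.21 to 0.031 for Hif1a, -0.17 to -0.0036 for Bnip3, -0.44 to 0.16 for Egln3, 0.10 to 0.27 for Bnip3l and -0.63 to -0.39 for Vegfa on the 8 arrays, and -0.33 to 0.49, -0.27 to 0.26, -0.44 to 0.20, -0.14 to 0.59 and -0.75 to 0.11 on the 12.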
